A study of Mus musculus with 66 samples.

Results

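The genes described here encode the mitogen-activated protein (MAP) kinases, the kinases above them and the dual-specificity phosphatases (DUSPs). They were chosen by symbol alone, as every entry of the deposited gene table named Mapk, Map2k, Map3k or Dusp followed by a number. The rule found 60 of 24138 genes, namely 13 Mapk, 7 Map2k, 16 Map3k and 24 Dusp genes, and no measured value was used to choose them. Of these, 54 reached 1 FPKM (fragments per kilobase, corrected for library size) in at least 1 library and were tested. The other 6 stayed below 1 FPKM everywhere. They were Map3k8, Mapk13, Dusp9, Dusp13, Dusp27 and Dusp21, and Dusp21 was listed at 0 in all 66 libraries.

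RNA was measured in punches of ventral striatum, the region that holds the nucleus accumbens (NAcc), from WT and iMSN-D2RKO mice of strain C57BL/6 by the labels and C57BL/6J by the reporting summary. In iMSN-D2RKO mice both D2R alleles are floxed (D2R flox/flox) and a D1R-CRE+/- transgene is present, so that CRE is driven by the D1R promoter. The methods of the study place the loss of D2R in medium spiny neurons of the indirect pathway (iMSNs), because their embryonic precursors express both receptors. The controls are labelled wild type, and whether they carry the floxed alleles is not given in the sources used here. Mice of each genotype received saline or cocaine at 20 mg/kg intraperitoneally at ZT3 and were killed at ZT7, ZT11, ZT15, ZT19 or ZT23, with 3 libraries per group. The 3 ZT3 libraries of each genotype are labelled with both treatments and serve both series. This gave 22 groups, 33 WT and 33 iMSN-D2RKO libraries. Zeitgeber time (ZT) is counted in hours from lights on, so ZT3, ZT7 and ZT11 lie in the light and ZT15, ZT19 and ZT23 in the dark. Nothing in the labels says that replicates are separate animals, and p-values measure only the spread between these libraries.

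FPKM summed to between 364078 and 690048 per library (median 396432), and 12496 to 13028 genes reached 1 FPKM. Read numbers are unknown. A relative depth estimated from 1439 rarely detected genes ran from 0.381 to 1.73. It is the inverse of their typical FPKM, so it also falls where the FPKM of a library are scaled up. Libraries called shallow below are those with the lowest values of this estimate. Tissue identity was checked with markers. The summed FPKM of 10 spiny neuron genes had a median of 4316, led by Penk with a mean of 1874 FPKM, while the 5 choroid plexus and ependymal genes summed to a median of 15.3. The least abundant markers of other tissue were Hcrt of the hypothalamus, at a mean of 0.284 FPKM, and Folr1 of the choroid plexus, at 0.498. Of the blood markers only Alas2, at 1.49 FPKM, was found by its symbol, and haemoglobin genes were not assessed. Drd2, the gene floxed in iMSN-D2RKO mice, averaged 145 FPKM in iMSN-D2RKO and 150 FPKM in WT libraries (log2 difference −0.13 ± 0.12 SE, limma adjusted p = 0.77). FPKM over the whole gene do not resolve the deleted exon, so this level does not test the labels.

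Several libraries stood apart, and the main counts of called genes are given with and without them. Values of single genes include these libraries unless stated otherwise. On the first axis of the variation within groups, which held 43.6% of that variation over 9584 genes, 13 libraries scored from 44.2 to 56.1 and the other 53 no higher than 15.1. These 13 set-apart libraries comprised 6 WT and 7 iMSN-D2RKO libraries. None of the 6 libraries of ZT3 and none of the 12 of ZT11 was among them, against 1 of 12 at ZT7, 2 of 12 at ZT15, 6 of 12 at ZT19 and 4 of 12 at ZT23. Their median astrocyte sum was 365 FPKM against 244 in the others, and their median oligodendrocyte sum 2377 against 3171. These sums pool all time points. Against other libraries of their groups, markers of the same cell type could move in both directions. Aldh1l1 was lower (log2 difference −0.49) and the other astrocyte markers higher. Of the spiny neuron markers, Drd2 was higher (1.04) and Adora2a lower (−0.91). Every oligodendrocyte marker was lower. What sets these libraries apart was not tested. In bulk tissue, fewer cells of a type and less RNA per cell cannot be told apart. A further pair of libraries was extreme for many of the genes studied. WT ZT15 cocaine replicate 3, with the lowest relative depth (0.381), was the highest of all libraries for 17 of the 54 tested genes. The first iMSN-D2RKO ZT7 saline library, with a relative depth of 0.421 and the highest total of 690048 FPKM, was the highest for 9 and the lowest for 13. Its spiny neuron sum was 15652 FPKM, with Penk at 9282. In iMSN-D2RKO ZT11 saline replicate 1, choroid plexus and ependymal genes summed to 1148 FPKM.

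MAP kinase signalling runs through 3 tiers. A MAP3K phosphorylates a MAP2K, which phosphorylates a MAP kinase on a threonine and a tyrosine. The main branches end in the classical extracellular signal-regulated kinases (ERK), in the Jun N-terminal kinases (JNK), in p38 and in ERK5. DUSPs remove both phosphates. Several of them, such as Dusp1, Dusp4, Dusp5 and Dusp6, are transcribed in response to the cascade and switch it off again. In striatal neurons dopamine and glutamate receptors both act on ERK, and cocaine is a classical activator of ERK there.

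The sequences upstream of 4 phosphatase genes are shown because these genes carry the genotype comparison and the ZT3 comparison described further on. Dusp4, also part of the ZT3 comparison, is not shown because the reference used held no window for it. Each window covers the 250 bases before a transcription start in RefSeq (GRCm38.p6), read 5′ to 3′ on the gene's strand. Capitals mark matches to the cAMP response element (CRE, TGACGTCA), its core TGACG or CGTCA, the E-box CACGTG, and the CArG box, the site of serum response factor. Both strands were searched, and each full CRE also contains its cores. The windows are chr17:26508473-26508722 on the minus strand for Dusp1, chr19:53528895-53529144 on the plus strand for Dusp5, chr10:99262981-99263230 on the plus strand for Dusp6 and chr11:84068358-84068607 on the minus strand for Dusp14. The Dusp14 window lies inside the annotated gene, because the transcript used starts downstream of the gene's outermost start.
Dusp1: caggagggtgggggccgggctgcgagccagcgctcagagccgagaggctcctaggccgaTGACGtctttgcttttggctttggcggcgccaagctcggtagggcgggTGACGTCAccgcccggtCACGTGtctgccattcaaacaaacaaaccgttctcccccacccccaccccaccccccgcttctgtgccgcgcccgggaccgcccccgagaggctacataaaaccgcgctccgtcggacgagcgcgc
Dusp5: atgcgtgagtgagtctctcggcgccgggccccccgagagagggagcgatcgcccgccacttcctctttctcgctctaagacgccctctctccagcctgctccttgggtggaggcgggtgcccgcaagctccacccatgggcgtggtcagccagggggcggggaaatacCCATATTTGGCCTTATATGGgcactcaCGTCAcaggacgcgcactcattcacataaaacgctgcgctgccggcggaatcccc
Dusp6: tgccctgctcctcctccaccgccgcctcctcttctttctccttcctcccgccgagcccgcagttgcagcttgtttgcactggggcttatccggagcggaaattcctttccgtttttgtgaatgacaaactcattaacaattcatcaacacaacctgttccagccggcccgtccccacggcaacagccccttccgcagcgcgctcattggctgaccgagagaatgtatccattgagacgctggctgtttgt
Dusp14: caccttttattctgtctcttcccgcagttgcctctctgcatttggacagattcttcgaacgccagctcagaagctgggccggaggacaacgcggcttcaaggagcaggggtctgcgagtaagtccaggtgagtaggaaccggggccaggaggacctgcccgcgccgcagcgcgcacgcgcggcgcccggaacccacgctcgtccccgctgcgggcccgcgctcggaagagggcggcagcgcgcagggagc
In Dusp1, a CRE began 143 bases before the start, a further core at 191 bases and an E-box at 126 bases. Dusp5 held 2 adjoining CArG boxes at 82 and 72 bases and a core at 55 bases, and the windows of Dusp6 and Dusp14 held no match. Of 32851 RefSeq windows, 1.55% held a CRE, 17.8% a core, 6.02% an E-box and 1.47% a CArG box. The 46 genes of the cascade with a window had 59 windows between them, and these motifs occurred in 3, 17, 4 and 1 of the 59. A match is a description of the letters and not of binding.

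The ERK branch held abundant transcripts. Map2k1 (MEK1), a kinase that activates ERK, averaged 159 FPKM, with 79.7 FPKM in the lowest, 168 in the median and 216 in the highest library, and Mapk3 (ERK1) at 126 FPKM (85.1, 123 and 252). Map2k2 (MEK2) was lower, at 30.6 FPKM (11.3, 33.2 and 58.6). The MAP2Ks of ERK made up 14.1% of the summed FPKM of all 60 genes. The ranges of Map2k1 and Mapk3 over libraries overlapped.

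In the JNK branch, Mapk9 (JNK2) averaged 56.9 FPKM, Mapk10 (JNK3), the neuronal form, 33.4 and Mapk8 (JNK1) 18.1. The JNK activator Map2k4 stood at 56.9 FPKM and Map2k7 at 30.4. For p38, Mapk14 averaged 30.6 FPKM and had the smallest relative spread within groups of the 54 tested genes, with a coefficient of variation of 8.35%. Mapk11 followed at 5.81 FPKM, and the p38 activator Map2k6 at 6.03. ERK5 (Mapk7) was at 8.18 FPKM, its activator Map2k5 at 13.3, and the atypical kinases Mapk4 and Mapk6 at 28.3 and 19.9. Among the 16 MAP3Ks, Map3k10, a mixed-lineage kinase upstream of JNK, led with 72.9 FPKM, followed by Map3k12 (dual leucine zipper kinase, a mediator of axonal stress signals) with 17.7.

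Atypical phosphatases, which lack the MAP kinase-binding domain, were the most abundant DUSPs. Dusp26 averaged 70.3 FPKM, Dusp14 49.5 and Dusp3 34.9, and 14 atypical DUSPs made up 17.8% of the summed FPKM. The JNK and p38 phosphatase Dusp8 averaged 44.2 FPKM. Of the ERK phosphatases of the cytoplasm, Dusp7 stood at 20.4 FPKM (11.96 in the lowest, 19.4 in the median and 31.6 in the highest library) and Dusp6 at 15.9 (8.79, 14.1 and 39.6). Of the inducible nuclear DUSPs, Dusp1 lay between Dusp7 and Dusp6, at 18.3 FPKM (10.8, 16.1 and 51.3). Dusp5 averaged 3.85 FPKM (1.64, 3.49 and 11.2) and Dusp4 3.01 (0.930, 2.99 and 5.92), and with Dusp2 these nuclear DUSPs contributed 1.92% of the sum. The highest library for each of Dusp1, Dusp4, Dusp5 and Dusp6 was WT ZT3 replicate 1. Together, the 60 genes summed to 1208 FPKM in the lowest and 1570 FPKM in the highest library, with a median of 1328.

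**Figure D1:**
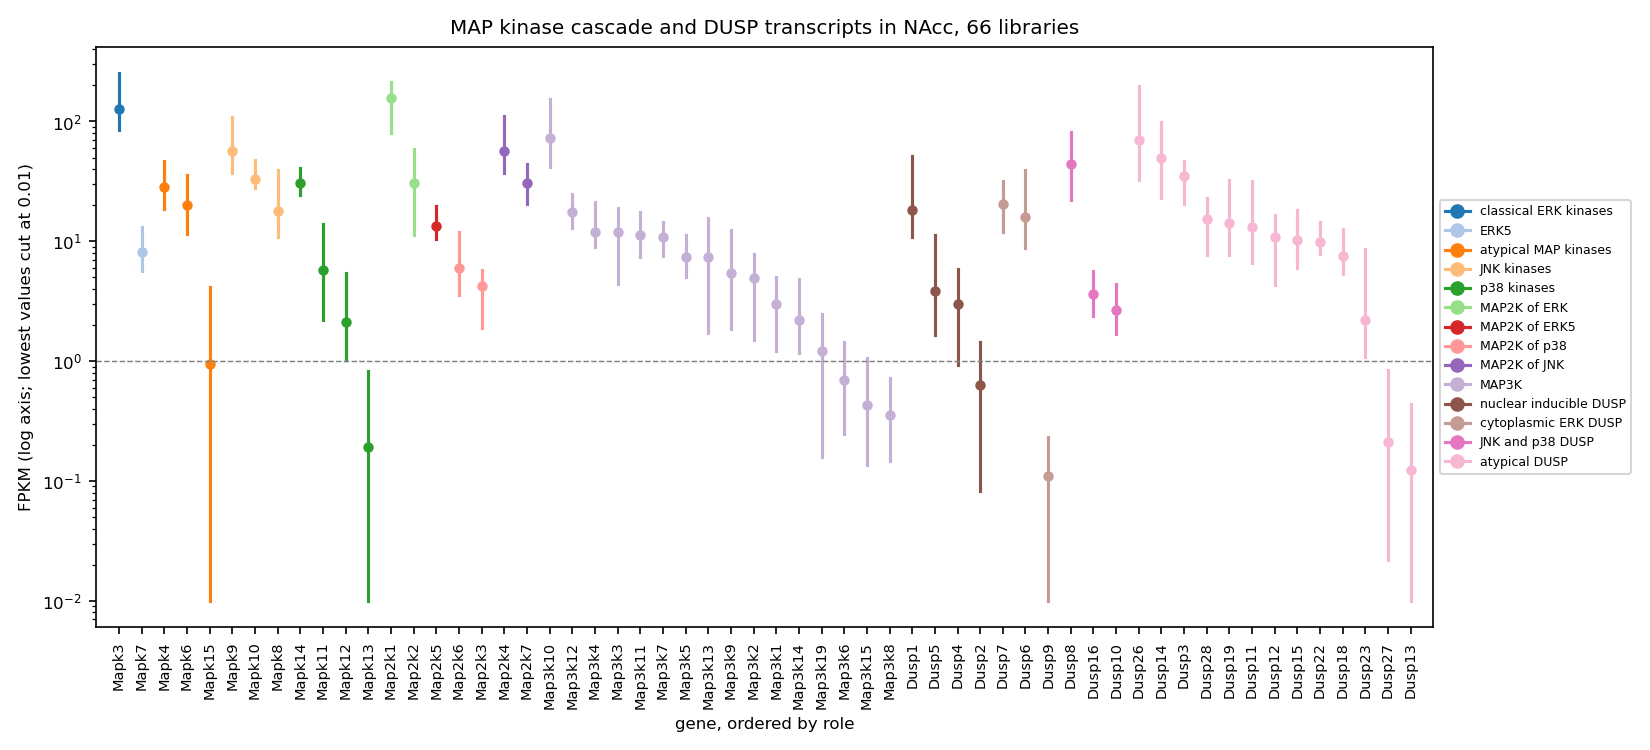
Levels of genes of the cascade in NAcc, in FPKM on a log axis, with genes on the x axis ordered by role. Points are means over the 66 libraries, lines run from the lowest to the highest library and the dashed line marks 1 FPKM. Map2k1 and Mapk3 lie near the top, at 159 and 126 FPKM, and Dusp21, listed at 0, cannot be drawn.

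The loss of D2R from iMSNs was compared with WT over 11 matched groups of genotype pairs, in a limma fit of log2(FPKM + 1). The added 1 FPKM shrinks the log2 difference of weakly expressed genes. A gene was called at an adjusted p under 0.05. Dusp14 was the single call among the 54 tested genes (1.85%), where 1.56% of all 14643 genes were called. Dusp14, a small atypical phosphatase known as a brake on T-cell receptor signalling, was higher in iMSN-D2RKO mice. WT libraries ran from 23.1 FPKM through a median of 37.2 to 92.6, and iMSN-D2RKO libraries from 35.5 through 52.8 to 98.5. The means were 41.2 ± 14.4 and 57.9 ± 17.2 FPKM (SD, n = 33 each), a log2 difference of 0.49 ± 0.080 (SE, limma adjusted p = 1.1e-04). The overall ranges overlapped, while the iMSN-D2RKO mean was above the WT mean in 11 of 11 matched groups, with no overlap between libraries in 5. Neither count was made for all genes.

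The gap in Dusp14 was widest at ZT7 after saline. There the WT libraries held 27.0, 25.9 and 27.4 FPKM and the iMSN-D2RKO libraries 87.0, 43.8 and 75.3 FPKM, a ratio of means of 2.57. At ZT23 after saline, WT held 38.1, 37.2 and 33.4 FPKM and iMSN-D2RKO 57.5, 62.3 and 50.2. At ZT3 the libraries of the genotypes overlapped, with 72.2, 49.3 and 59.1 FPKM in WT and 50.2, 55.0 and 81.5 in iMSN-D2RKO (log2 difference 0.03). Whether ZT3 differed from the later times in this respect was not tested. After cocaine the libraries of both genotypes spread widely at ZT19, where WT held 46.6, 28.1 and 92.6 FPKM and iMSN-D2RKO 82.9, 89.7 and 52.8.

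Averaged over the 5 later time points, Dusp14 was called after saline (log2 difference 0.63 ± 0.12, 55.8 against 35.1 FPKM, adjusted p = 0.0026), where 0.212% of all genes were called. This call was lost without the libraries numbered 1 (log2 difference 0.56) or 3 (0.65) of every group, at an adjusted p of up to 0.32. After cocaine it missed the threshold (0.45 ± 0.12, 59.0 against 43.4 FPKM, adjusted p = 0.19, with 0.109% of all genes called). Without WT ZT19 cocaine replicate 3, the highest WT library, the cocaine value became 0.54 with an adjusted p of 0.0093, and without the 13 set-apart libraries 0.62 with 0.0063. Over all 11 groups the call held when any of the 66 libraries was left out (adjusted p from 1.6e-06 to 2.6e-04). It was 0.56 without the set-apart libraries (adjusted p = 5.6e-05) and 0.48 without the shallow iMSN-D2RKO ZT7 saline replicate 1 (1.9e-04). It was lost when the libraries numbered 1 were dropped from every group (0.45, adjusted p = 0.088).

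**Figure D2:**
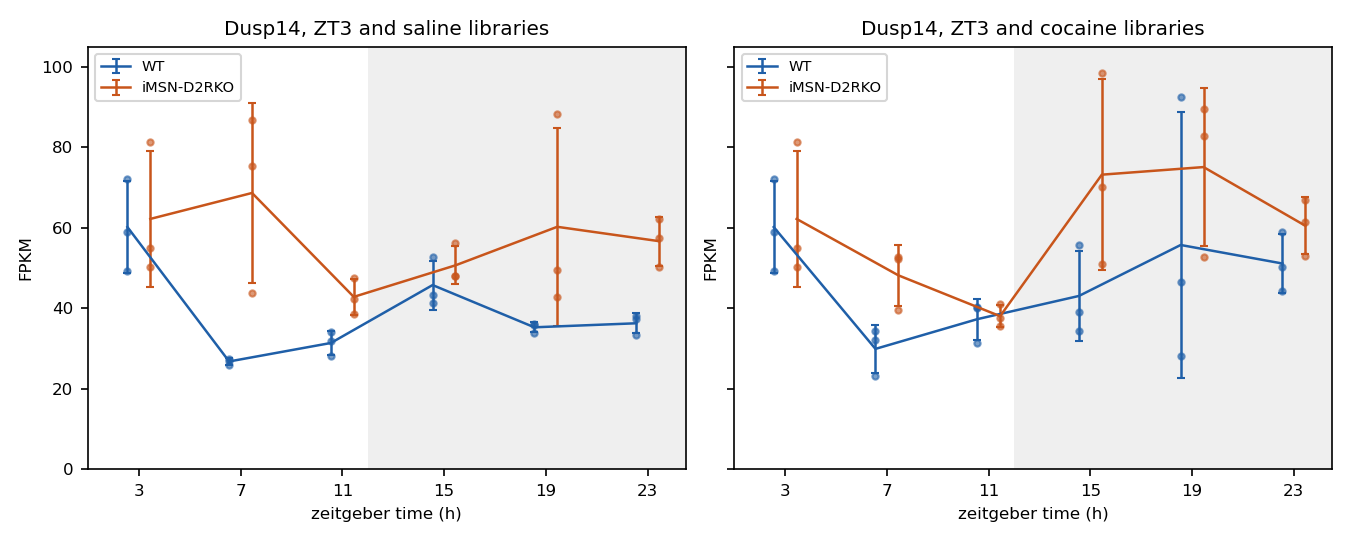
Dusp14 in FPKM (y axis) against zeitgeber time in hours (x axis), for ZT3 and saline libraries on the left and ZT3 and cocaine libraries on the right. Points are libraries, lines join the means of 3, bars are the SD and the grey area is the dark phase. WT means stay at or below 36.3 FPKM at ZT7, ZT11, ZT19 and ZT23 after saline, where every iMSN-D2RKO library lies above every WT library.

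Some genes of the spiny neurons were called beside Dusp14. Penk, which encodes the enkephalin precursor of iMSNs, was called higher in iMSN-D2RKO mice (2385 against 1362 FPKM, log2 difference 0.73, adjusted p = 4e-07) and exceeded WT in 11 of 11 groups. Drd1, the D1 receptor of the direct pathway, was called as well (114 against 87.5 FPKM, 0.38). Among the 10 spiny neuron markers these 2 were called, both higher, and the median log2 difference of the 10 was −0.06. Over the 66 libraries Dusp14 correlated with Penk at a Spearman's rho of 0.632 and at 0.635 after group means were removed, with the immediate early gene Nr4a1 at 0.749 and 0.567, and with Dusp6 at 0.573. These values describe libraries that share depth and tissue composition. The part of cell composition in the Dusp14 difference was not tested.

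Dusp7, which acts on ERK in the cytoplasm, had the next smallest p. It averaged 18.9 FPKM in iMSN-D2RKO and 22.0 in WT mice (log2 difference −0.22 ± 0.076, adjusted p = 0.13) and was lower in 8 of 11 groups. Without the set-apart libraries it passed the threshold (−0.27, adjusted p = 0.0070). Mapk4, an atypical kinase, stood at 29.6 against 27.0 FPKM (0.14 ± 0.051, adjusted p = 0.16). The median log2 difference of the 54 genes was −0.005, against 0.007 for all genes. After cocaine the smallest p values behind Dusp14 were those of Mapk7 (7.69 against 8.88 FPKM, −0.18 ± 0.061, adjusted p = 0.54) and Dusp15 (9.48 against 11.2 FPKM, −0.21 ± 0.098, adjusted p = 0.96).

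At ZT3, Dusp1, Dusp4, Dusp5 and Dusp6 were lower in iMSN-D2RKO than in WT libraries, short of the threshold. Dusp1 held 51.3, 19.8 and 29.7 FPKM in WT and 12.3, 13.7 and 17.3 in iMSN-D2RKO libraries. Dusp6 held 39.6, 23.3 and 27.0 FPKM in WT and 12.6, 17.4 and 14.1 in iMSN-D2RKO. Dusp5 held 11.2, 5.84 and 5.83 FPKM against 3.17, 4.11 and 3.53. Dusp4 held 5.92, 5.23 and 4.38 FPKM against 3.62, 2.69 and 2.58. In all 4 genes each iMSN-D2RKO library was below each WT library, and WT replicate 1 was the highest. How many of all genes separate in this way at ZT3 was not counted.

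The log2 differences at ZT3 were −1.07 ± 0.27 for Dusp1 (14.4 against 33.6 FPKM, adjusted p = 0.22), −0.95 ± 0.23 for Dusp6 (14.7 against 30.0, 0.16), −0.85 ± 0.20 for Dusp5 (3.602 against 7.62, 0.14) and −0.64 ± 0.19 for Dusp4 (2.96 against 5.18, 0.64). No gene of the cascade was called by limma, where 0.041% of all genes were, all of them lower. These 4 were the only ones of the 54 (7.41%) with an unadjusted p under 0.05, against 2.04% of all genes. Dusp2, also counted among the inducible nuclear DUSPs, was not among them. The calls depended on single libraries. Without WT ZT3 replicate 2, Dusp1, Dusp5 and Dusp6 passed the threshold (adjusted p = 0.020, 0.041 and 0.047). That library had the highest septal and hypothalamic marker sum of all 66, at 88.3 FPKM against a median of 18.5, and the part of this tissue in the ZT3 values was not tested. Without WT ZT3 replicate 1 all 4 had an adjusted p of 1 and log2 differences of −0.72 (Dusp1), −0.74 (Dusp6), −0.58 (Dusp5) and −0.56 (Dusp4). Without the 13 set-apart libraries, none of which is from ZT3, Dusp5 and Dusp6 were called (0.043 and 0.0077). Leaving out only WT ZT19 cocaine replicate 3 also gave these 2 calls (limma adjusted p = 0.0295 and 0.010), with unchanged log2 differences.

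Immediate early genes, which neurons transcribe within minutes of activity, were examined beside them. Fos held 46.0, 13.4 and 18.1 FPKM in the WT libraries and averaged 5.16 FPKM in iMSN-D2RKO (log2 difference −2.01, adjusted p = 0.24). Nr4a1 averaged 52.0 against 129 FPKM. Among the 15 early genes tested, Egr2 was called (2.68 against 22.8 FPKM, −2.49), and 12 had an unadjusted p under 0.05, against 0.041% and 2.04% of all genes. Sgk1, which glucocorticoids induce, was called lower (30.0 against 72.7 FPKM, −1.24). Values of other genes of this kind are not given, so no difference of the class can be read from Sgk1. The labels do not say whether the ZT3 mice had been injected before they were killed, so an injection cannot be told apart from other states of these mice. The part of handling or recent activity was not tested.

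**Figure D3:**
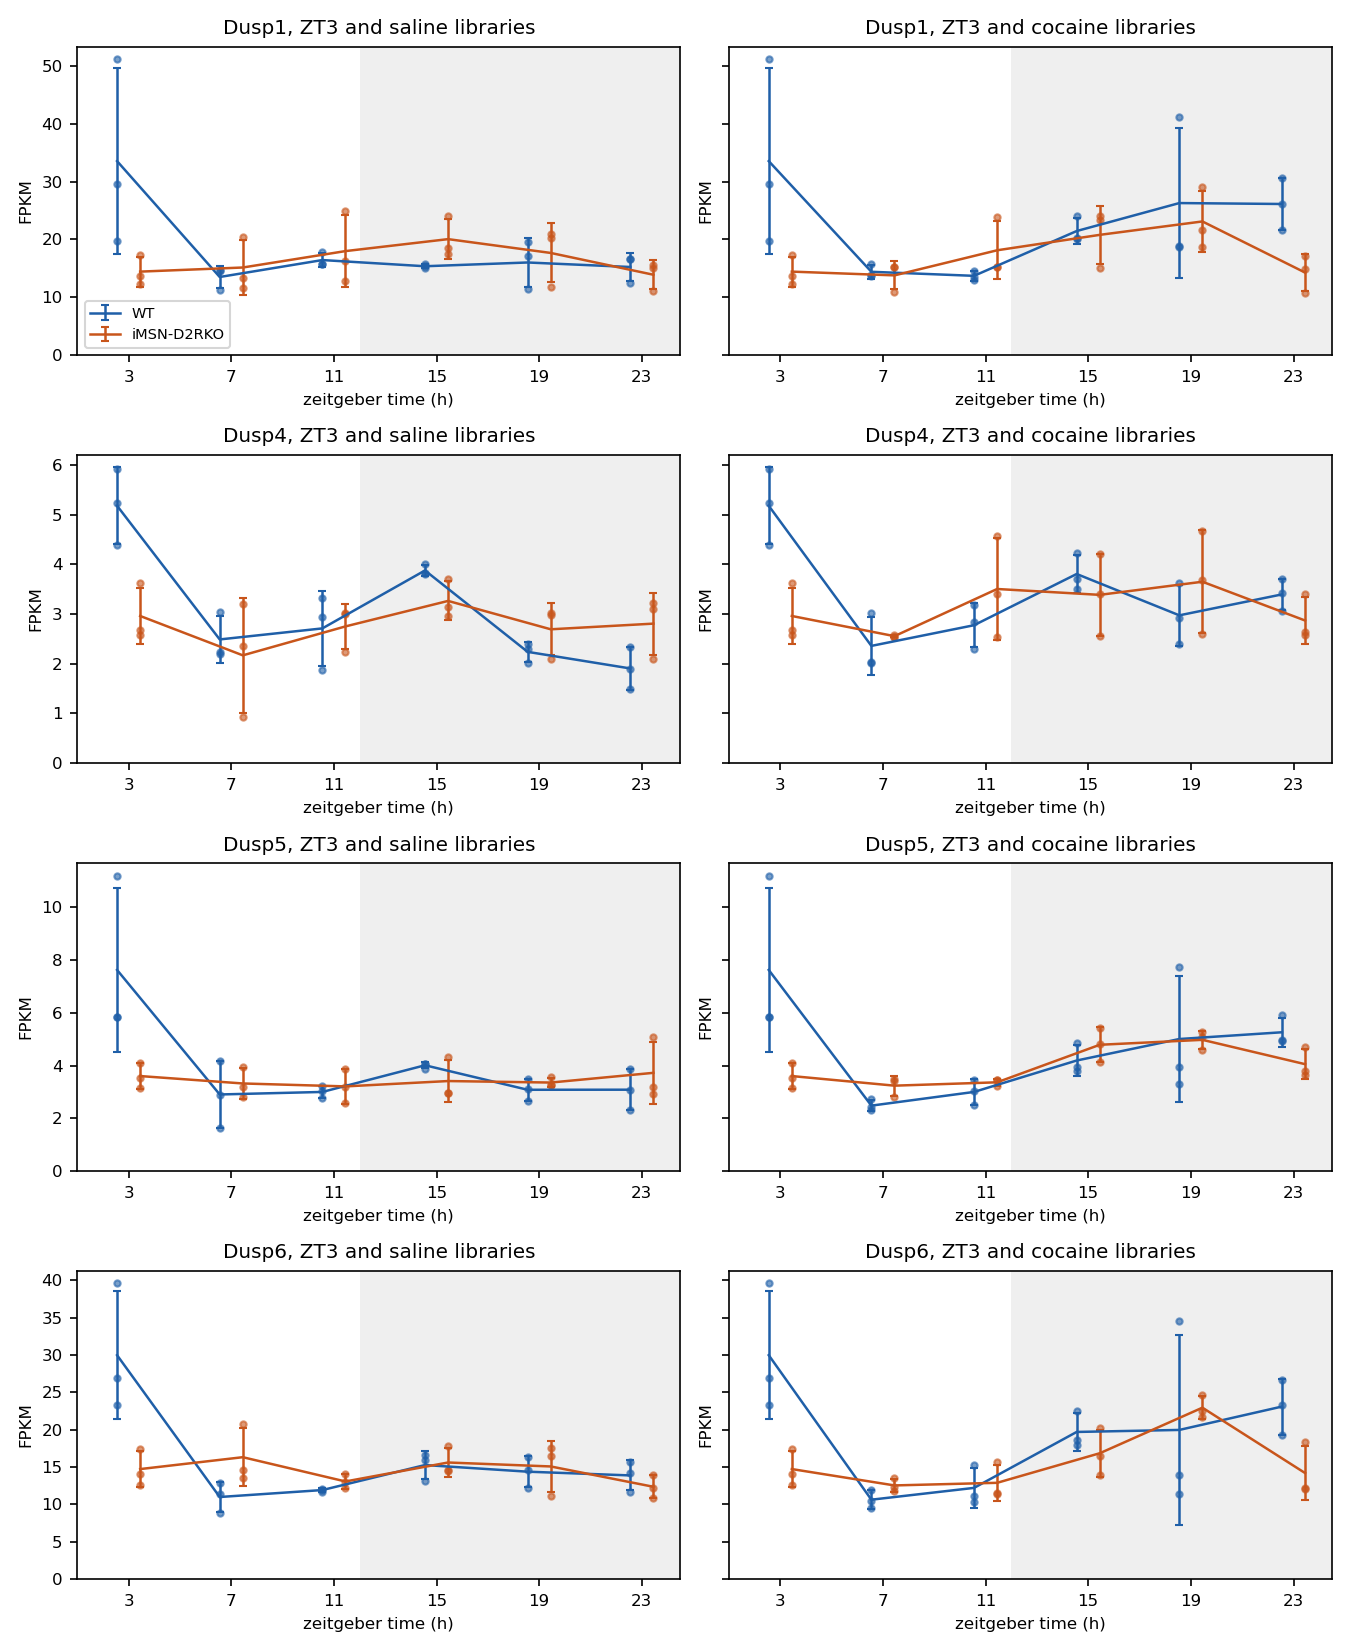
Dusp1, Dusp4, Dusp5 and Dusp6 in FPKM (y axes) against zeitgeber time in hours (x axes), for ZT3 and saline libraries on the left and ZT3 and cocaine libraries on the right. Points are libraries, lines join the means of 3, bars are the SD and the grey area is the dark phase. WT means are highest at ZT3 in all 4 genes, at 33.6, 5.18, 7.62 and 30.0 FPKM. In the cocaine series the WT means of Dusp1 and Dusp6 again lie above 19 FPKM at ZT15, ZT19 and ZT23.

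Cocaine was compared with saline at the 5 time points after injection in each genotype. No gene of the cascade was called in any of the 10 comparisons, by limma, where 0.00683% of all genes were called in WT at ZT7 and at ZT15, 0.0205% in WT at ZT19, 0.0137% in iMSN-D2RKO at ZT7 and 0% in the other 6. The averages over 5 time points gave no call either, with 0.0137% of all genes called in WT and 0% in iMSN-D2RKO. In these averages 5 of 54 genes passed an unadjusted p of 0.05 in each genotype, against 2.49% and 4.86% of all genes. At an unadjusted p under 0.05, the genes of the cascade numbered 1, 0, 5, 2 and 4 of 54 in WT from ZT7 to ZT23, where 1.81%, 0.683%, 6.79%, 4.9% and 1.28% of all genes passed. In iMSN-D2RKO mice they numbered 15, 0, 0, 12 and 0, against 22.9%, 0.41%, 1.49%, 16% and 1.67%. With 3 libraries a group, differences that miss the threshold may still be present.

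In WT mice the smallest p values at ZT23 were those of Dusp1, Dusp4, Dusp5 and Dusp6, each short of the threshold. Dusp2, also counted among the inducible nuclear DUSPs, was not among them. At ZT23, Dusp6 held 23.3, 26.7 and 19.2 FPKM after cocaine and 11.7, 14.2 and 15.7 after saline. Dusp1 held 21.6, 26.2 and 30.6 FPKM after cocaine and 16.7, 12.4 and 16.7 after saline. Neither gene's groups overlapped, and the share of all genes without overlap was not counted. The log2 differences were 0.69 ± 0.23 for Dusp6 and 0.74 ± 0.27 for Dusp1, and those of Dusp5 (5.26 against 3.09 FPKM) and Dusp4 (3.39 against 1.90 FPKM) 0.63 ± 0.20 and 0.61 ± 0.19, each with an adjusted p of 1. At ZT19, the Dusp1 mean was 26.3 against 16.0 FPKM (0.61 ± 0.27, adjusted p = 0.94). It was raised by WT ZT19 cocaine replicate 3, with 41.3 FPKM against 18.8 and 18.9 in the other libraries of its group. Replicates 1 and 3 of that group are set apart, as is WT ZT23 cocaine replicate 3, with 30.6 FPKM. Dusp1 was higher in set-apart libraries (log2 difference 0.36, in 9 of 10 groups), and their part in these differences was not tested. Averaged over the 5 times, Dusp1 stood at 20.4 against 15.3 FPKM (0.33 ± 0.12), Dusp6 at 17.1 against 13.3 (0.26 ± 0.10) and Dusp14 at 43.4 against 35.1 (0.24 ± 0.12), all with an adjusted p of 1. Beside them, Nr4a1 was called in the same average (55.8 against 28.6 FPKM, 0.70 ± 0.14, adjusted p = 0.033).

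At ZT15 in WT mice, Dusp7 held 27.4, 26.2 and 31.6 FPKM after cocaine and 15.5, 16.8 and 16.4 after saline, again with no overlap (0.77 ± 0.25, adjusted p = 0.34). Separation of this kind was not counted over all genes. Dusp12, an atypical phosphatase with a zinc-binding domain, averaged 7.37 against 11.7 FPKM (−0.66 ± 0.20, adjusted p = 0.30), with 4.30 FPKM in the shallow replicate 3 of the cocaine group. Dusp15 averaged 12.04 against 7.97 FPKM (0.50 ± 0.22, adjusted p = 0.66). Without the set-apart libraries, none of which is a WT library of ZT15, Dusp7 was called at ZT15, with 21 genes in all. At ZT19 that setting leaves 1 cocaine and 1 saline library, which are assumed to vary like the other groups. The 1536 genes called there, with Map2k2, Map2k4 and Dusp8 among them, compare these libraries and not the treatments. At the early times the smallest p values were those of Mapk4 at ZT7 (31.2 against 23.6 FPKM, 0.36 ± 0.17) and Mapk11 at ZT11 (6.31 against 4.18 FPKM, 0.46 ± 0.30), both with an adjusted p of 1.

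In iMSN-D2RKO mice the comparison at ZT7 includes the shallow saline replicate 1. There Mapk11 averaged 4.24 FPKM after cocaine and 9.26 after saline (−0.99 ± 0.30, adjusted p = 0.11), and Map3k10 61.1 against 108 FPKM (−0.80 ± 0.26, adjusted p = 0.12). The saline mean of Map3k10 included the highest library of all, at 154 FPKM, and the cocaine mean the lowest, the set-apart replicate 2 at 41.4 FPKM. Map3k10 was lower in set-apart libraries (log2 difference −0.68). Leaving out saline replicate 3 or replicate 2 brought 10 and 6 genes of the cascade past the threshold, with 14% and 10.7% of all genes. Both settings keep the shallow saline replicate 1, and leaving out that library brought none past the threshold. At ZT19, Dusp6 held 21.7, 22.5 and 24.6 FPKM after cocaine and 17.6, 11.1 and 16.5 after saline (0.60 ± 0.23, adjusted p = 0.30). Map3k11 (12.4 against 9.49 FPKM, 0.38 ± 0.15) and Dusp15 (7.76 against 12.2 FPKM, −0.57 ± 0.22) followed at the same adjusted p, and 11 genes were called without saline replicate 2, with 16.9% of all genes. That setting leaves a saline arm of set-apart libraries only (replicates 1 and 3) against a cocaine arm with none, so treatment and library status cannot be told apart in it. Set-apart libraries were higher in Dusp15 (0.33, in 10 of 10 groups) and lower in Map3k11 (−0.34, in 10 of 10). At ZT15, Dusp14 averaged 73.2 against 50.7 FPKM (0.48 ± 0.26), and at ZT23 Dusp7 21.2 against 14.8 (0.48 ± 0.25), each with an adjusted p of 1. At ZT11, Map3k9, a mixed-lineage kinase, averaged 7.28 against 6.22 FPKM (0.21 ± 0.24, adjusted p = 1). In the average over 5 times, Dusp18 stood at 7.79 against 6.95 FPKM (0.15 ± 0.064) and Mapk11 at 5.26 against 6.68 (−0.28 ± 0.14), both with an adjusted p of 0.91, and Mapk3 at 116 against 132 FPKM (−0.15 ± 0.079) at the same adjusted p.

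The responses to cocaine were also compared between the genotypes, and the difference between dark and light between treatments and genotypes. In none of these 6 tests of a difference was a gene of the cascade called by limma, where 0.0137% of all genes were for cocaine at ZT7 between the genotypes, 0.00683% for dark and light between treatments in WT and 0% in the other 4. At an unadjusted p under 0.05 between 2 and 4 of 54 passed in each. The shares of all genes were 1.85% and 6.31% for cocaine between genotypes over 5 times and at ZT7, 1.37% and 4.58% for dark and light between treatments in WT and iMSN-D2RKO, and 4.14% and 2.12% between genotypes after saline and cocaine. The smallest p values were those of Dusp1, whose change from light to dark was larger after cocaine in WT mice by 0.65 ± 0.20 on the log2 scale (adjusted p = 1), and of Dusp14, in iMSN-D2RKO mice by 0.51 ± 0.20 (adjusted p = 0.65). In the tests of cocaine against saline the shared ZT3 libraries cancel. Nr4a1 was called in the WT test (1.33 ± 0.23, adjusted p = 0.0061).

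The cascade was then compared between times of day. In an F test over the 6 time points, averaged over genotypes and treatments, 31 of 54 genes (57.4%) were called, close to the 51.6% of all genes. Mapk3 did not pass, with means between 118 FPKM at ZT15 and 135 at ZT7 (adjusted p = 0.49). Both ERK activators did. Map2k1 was highest at ZT11 with 182 FPKM and lowest at ZT19 with 132 (adjusted p = 0.023), and Map2k2 fell from 35.6 FPKM at ZT3 to 23.6 at ZT19 (0.048). In WT mice at ZT19 after saline, Map2k1 held 79.7 and 95.01 FPKM in the set-apart libraries and 172 in the third.

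In the JNK branch all 3 kinases were called, where 51.6% of all genes were. Mapk9 stood at 48.2 FPKM at ZT3 and 72.0 at ZT19 (adjusted p = 0.029), and Mapk8 at 14.9 and 23.3 (0.020). Mapk10 ran from 30.8 FPKM at ZT7 to 36.3 at ZT19 (0.0017). Map2k4, which activates these kinases, ran from 47.1 FPKM at ZT11 to 76.4 at ZT19 (0.010). Of the 12 libraries of ZT19, 6 are set apart. In set-apart libraries Mapk9, Mapk8 and Map2k4 were higher by 0.93, 0.98 and 1.003 on the log2 scale, each in 10 of 10 groups. The calls given here include these libraries. Of the p38 branch, Map2k6 rose from 4.36 FPKM at ZT3 to 7.85 at ZT19 (0.0044), and Mapk11 was lowest at ZT15 (4.21 FPKM) and highest at ZT23 (7.11 FPKM, 0.042). Map2k5 passed narrowly (0.042), with 12.3 FPKM at ZT15 and 14.9 at ZT19.

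Of the 15 tested MAP3Ks, 10 were called, against 51.6% of all genes, and whether the MAP3Ks differed from all genes was not tested. Map3k12 had the smallest p of the whole cascade, with 15.3, 16.4 and 15.8 FPKM at ZT3, ZT7 and ZT11 and 18.7, 19.7 and 19.01 at ZT15, ZT19 and ZT23 (adjusted p = 3.6e-05). Map3k4 ran from 9.75 FPKM at ZT3 to 13.8 at ZT15 (6.4e-04). Map3k6 was highest at ZT11, at 0.939 FPKM, and lowest at ZT19, at 0.453 (9.6e-05). Map3k3, Map3k13 and Map3k19 were highest at ZT15, as were Map3k5, Map3k14 and Map3k15, and Map3k11 was highest at ZT3, with adjusted p between 0.0088 and 0.046.

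All 4 inducible nuclear DUSPs were called, where 51.6% of all genes were, and a difference of this class from all genes was not tested. Dusp1 was highest at ZT3 (24 FPKM) and lowest at ZT7 (14.2 FPKM, adjusted p = 0.012), Dusp5 ran from 5.61 to 2.99 FPKM between the same times (2.0e-04) and Dusp4 from 4.07 to 2.39 (5.0e-04). Dusp6 of the cytoplasm was also highest at ZT3, at 22.4 FPKM, with 12.5 at ZT11 (9.7e-05). These ZT3 means combine high WT and lower iMSN-D2RKO libraries. The fourth nuclear phosphatase, Dusp2, was low throughout and lowest at ZT23 (0.461 FPKM, 0.0083). Dusp14 was highest at ZT3 with 61.2 FPKM and lowest at ZT11 with 37.4 (0.0011). Of the other phosphatases, Dusp28 (17.8 FPKM at ZT11, 12.9 at ZT19, 0.0033) and Dusp12 (12.2 at ZT7, 9.78 at ZT19, 0.022) were lower in the dark, Dusp11 was highest at ZT15 (16.1 FPKM, 0.046), Dusp19 at ZT19 (17.9 FPKM, 0.045) and Dusp23 at ZT19 (2.55 FPKM, 0.042), and Dusp8 was lowest at ZT19 (36.7 FPKM, 0.030).

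How many genes passed varied with the libraries used. Of the libraries of ZT19, 6 of 12 are set apart. Without the libraries numbered 1, 2 or 3 of every group, 3, 32 and 9 genes were called (1868, 7167 and 3376 of all genes). With the library score as a covariate 29 of 54 were called (6366 of all genes). Without the 13 set-apart libraries 14 of the 54 genes were called (4582 of all genes), without ZT19 17 (4032 of all genes) and without ZT3 26 (6470 of all genes). Single libraries moved the count from 20 (without iMSN-D2RKO ZT19 saline replicate 1, with 44.8% of all genes) to 38 (without iMSN-D2RKO ZT19 saline replicate 2, with 60.3%). Map3k12, Map3k6 and Dusp5 were called under every setting that tested them. In the set-apart libraries, compared with the others of their groups, 12 of the 54 genes were higher by more than 0.5 on the log2 scale and 7 lower by as much, a share of 35.2% against 33.8% of all genes. Map2k4 was higher by 1.003, Mapk8 by 0.98, Dusp19 by 0.94, Mapk9 by 0.93 and Map2k6 by 0.83, while Map2k2 was lower (−1.30), as were Dusp26 (−0.97), Dusp8 (−0.78) and Map2k1 (−0.70). Each of these signs held in 10 of 10 groups, except that of Dusp8, which held in all but 1. For Map3k12 the difference was 0.17 and positive in 10 of 10 groups, for Dusp14 0.13 and positive in 5, and for Dusp6 −0.01.

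Dark was then set against light within each genotype and treatment. In WT mice after saline no gene of the cascade was called by limma, while 2.75% of all genes were. At an unadjusted p under 0.05, 8 of 54 passed, against 27.2% of all genes. Map3k12 came closest, at 18.4 FPKM in the dark and 15.4 in the light (0.23 ± 0.069, adjusted p = 0.0502). After cocaine 4 genes (7.41%) were called, with 13.7% of all genes. Map3k12 rose from 15.7 to 19.7 FPKM (0.30 ± 0.069, adjusted p = 0.0058), Map3k4 from 10.4 to 14.1 FPKM (0.39 ± 0.096, 0.0095) and Map2k6 from 4.53 to 7.76 FPKM (0.59 ± 0.17, 0.024), and Dusp2 fell from 0.859 to 0.444 FPKM (−0.37 ± 0.10, 0.018). The light libraries of Map3k12 held 16.2, 15.1 and 14.97 FPKM at ZT3, 15.6, 17.7 and 14.9 at ZT7 and 14.9, 16.2 and 16.0 at ZT11. In the dark they held 16.2, 15.6 and 24.6 FPKM at ZT15, 20.4, 20.1 and 22.5 at ZT19 and 19.6, 18.4 and 20.3 at ZT23. All libraries of ZT19 and ZT23 lay above all light libraries, and at ZT15 the shallow replicate 3 carried the mean.

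In iMSN-D2RKO mice after saline 12 genes (22.2%) were called, with 27.3% of all genes. Map3k12 (19.3 against 15.7 FPKM, 0.28, adjusted p = 0.0081) again had the smallest p, followed among the higher genes by Map3k19, Map3k4, Map2k6, Map3k5, Map3k3, Map3k2 and Map3k1, at log2 differences from 0.23 to 0.54. Of these, Map2k6 averaged 7.17 FPKM in the dark against 4.34 in the light. Dusp28 (13.1 against 17.5 FPKM, −0.41, adjusted p = 0.020), Dusp3 (−0.30), Map3k11 (−0.23) and Map3k10 (65.6 against 87.2 FPKM, −0.43) were lower in the dark. After cocaine none was called by limma, with 0.942% of all genes. At an unadjusted p under 0.05, 8 of 54 passed, against 12.5% of all genes. The smallest p values were those of Map3k5 (8.55 against 7.01 FPKM, 0.25 ± 0.075, adjusted p = 0.090), a stress-activated kinase, and Dusp14 (69.6 against 49.5 FPKM, 0.49 ± 0.15, adjusted p = 0.12).

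These counts moved with the set-apart libraries, of which 3 of 9 dark and 0 of 9 light libraries belong to WT saline, 3 and 0 to WT cocaine, 4 and 0 to iMSN-D2RKO saline and 2 and 1 to iMSN-D2RKO cocaine. Over the 54 genes, the difference between dark and light and that between set-apart and other libraries had a Spearman's rho of 0.800, 0.787, 0.860 and 0.431 in these 4 series, against 0.810, 0.827, 0.871 and 0.579 over all genes. Both differences use the same set-apart libraries, nearly all of them dark, so they are related by construction and the values are a description only. Without the set-apart libraries the calls numbered 0, 4, 0 and 1, with 16, 2630, 33 and 262 of all genes. The WT cocaine calls of Map2k6 and Dusp2 were then lost, those of Map2k4 and Mapk15 gained, and the iMSN-D2RKO cocaine call was Dusp6. Leaving out single libraries gave up to 5 calls in WT saline (without ZT19 replicate 3, with 17.2% of all genes) and up to 1 in iMSN-D2RKO cocaine. It gave 2 calls in WT cocaine (without ZT23 replicate 3, with 2.92% of all genes) to 9 (without ZT19 replicate 2 or ZT23 replicate 2, with 17.4% and 23.7%), and in iMSN-D2RKO saline 1 (without ZT23 replicate 3, with 3.51%) to 26 (without ZT23 replicate 2, with 43.7%). With the library score as a covariate, Map2k6, Dusp2 and Map3k4 were not called in WT cocaine. The WT cocaine call of Map2k6 was also lost without the libraries numbered 1 or 3 of every group. Over all settings its log2 difference ran from 0.18 to 0.86. Map3k12 was called without any 1 of the 66 libraries in both series, but not without the libraries numbered 1 or 3 of every group, nor in iMSN-D2RKO saline without the set-apart libraries. With the covariate none of the 12 iMSN-D2RKO saline calls held, and 275 of all genes were called. Oligodendrocyte markers moved alongside, with 2 of 6 lower in the dark in WT cocaine and 3 of 6 in iMSN-D2RKO saline, by medians over the 6 of −0.31 and −0.51 on the log2 scale. The part of these libraries and cell types in the dark and light differences was not tested.

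**Figure D4:**
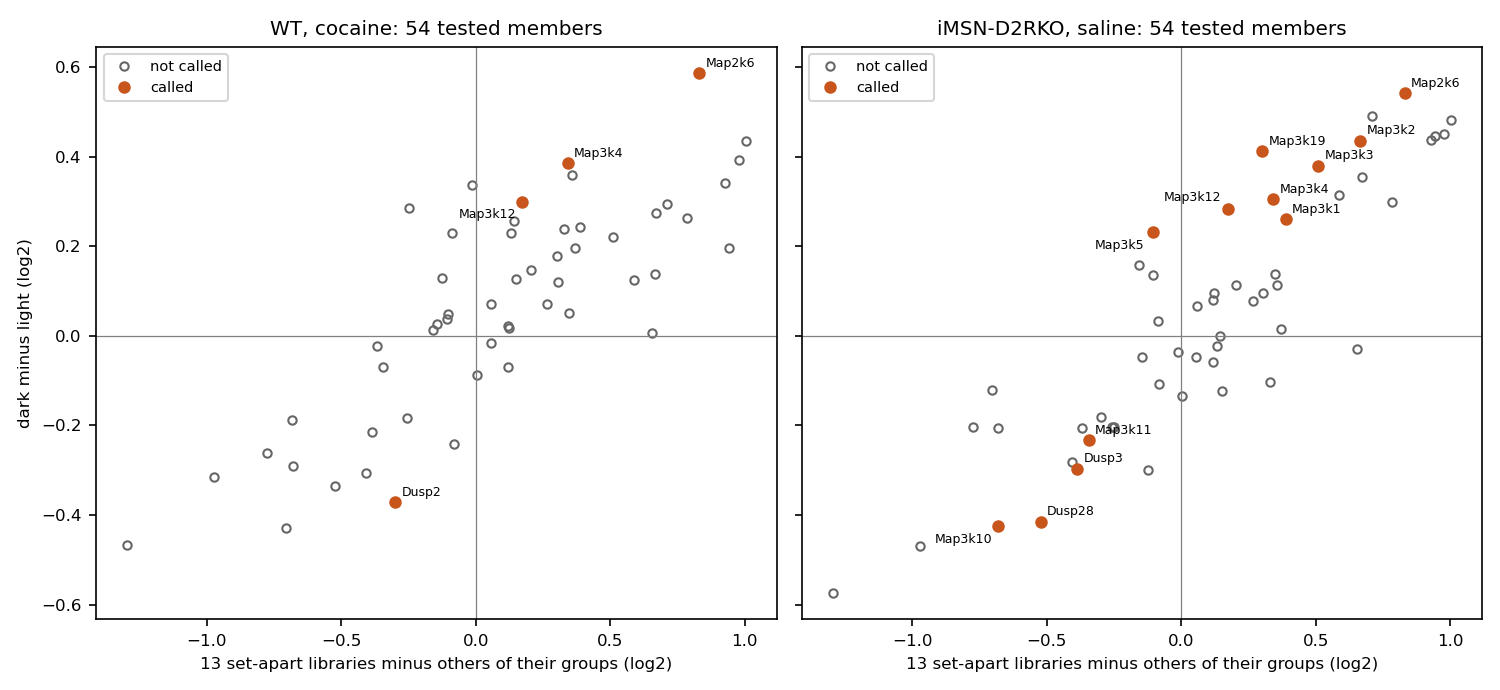
Difference between dark and light on the log2 scale (y axis) against the difference between the 13 set-apart libraries and the others of their groups on the same scale (x axis), for the 54 tested genes in WT mice after cocaine (left) and iMSN-D2RKO mice after saline (right). Filled points are called and open points are not. Both axes use the same set-apart libraries. The points rise together, with a Spearman's rho of 0.787 and 0.860, and Map3k12 lies high for its small value of 0.17 on the x axis.

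Daily rhythm was tested with JTK_CYCLE, which fits rank patterns with periods of 20 and 24 h, at a corrected p under 0.01. In WT mice after saline 4 of 52 genes tested (7.69%) were rhythmic, against 9.81% of all genes. They were Mapk10 (exact test, corrected p = 0.0026), Mapk11, Map3k13 and Dusp19. Mapk10, the neuronal JNK, was highest at ZT23 (40.3 FPKM) and lowest at ZT11 (30.5 FPKM). After cocaine 3 of 54 were rhythmic, against 7.61% of all genes. They were Map2k6, Map2k1, which averaged 178 FPKM at ZT3 and 111 at ZT19, and Dusp2. In iMSN-D2RKO mice after saline Map2k2 and Map3k12 were rhythmic, 2 of 53, against 2.58% of all genes. After cocaine Dusp5, Dusp6, Map3k3 and Map3k6 were, 4 of 53 (7.55%) against 1.1% of all genes. Dusp6 averaged 12.5 FPKM at ZT7 and 22.9 at ZT19 there, and Dusp5 3.24 and 4.97 FPKM. Whether rhythms differed between series was not tested. None of the 13 calls held under all 12 settings. Mapk10 and Dusp5 held under 8, and Map3k3 under 2. Without the set-apart libraries Map3k13 and Dusp6 were still called, and the other 11, Mapk10, Dusp5 and Map2k1 among them, were not.

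**Figure D5:**
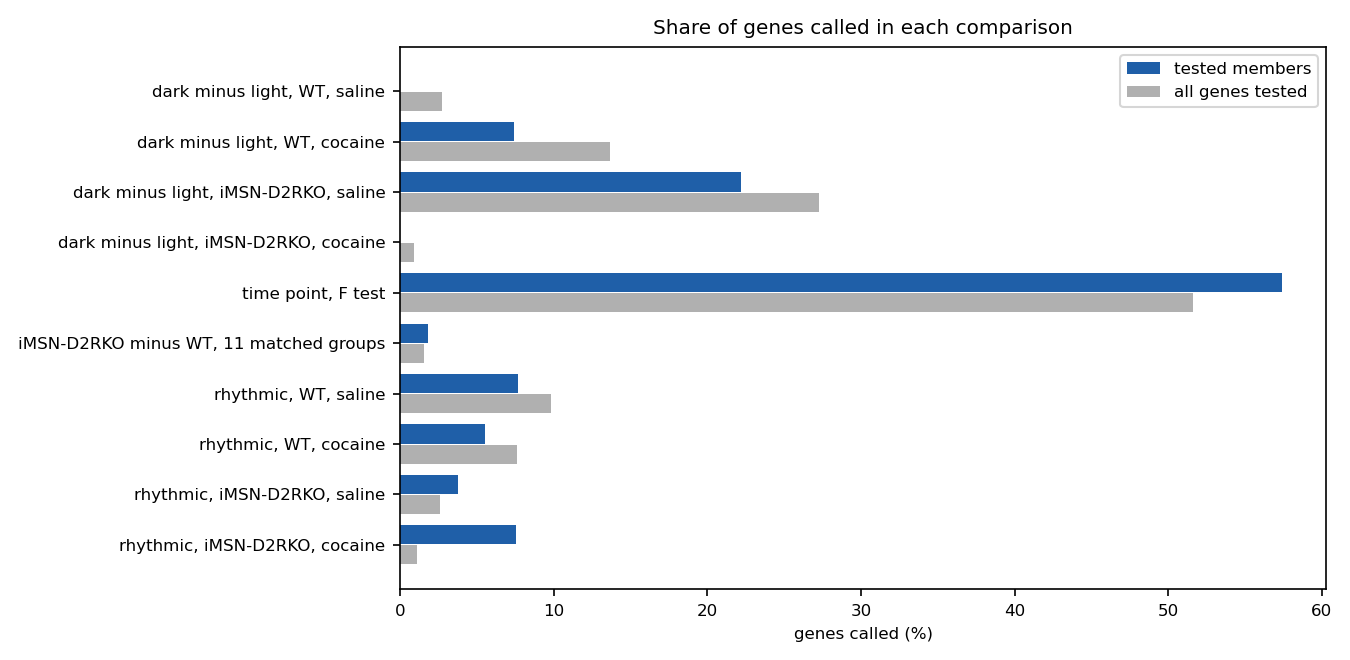
Percent of genes called (x axis) among the tested genes of the cascade (blue) and among all genes tested (grey), for each comparison on the y axis. The shares lie at 57.4% and 51.6% for time point, at 22.2% and 27.3% for dark against light in iMSN-D2RKO saline and at 7.55% and 1.1% for rhythm in iMSN-D2RKO cocaine.

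Dusp1, Dusp5 and Dusp6 varied with immediate early genes from library to library. The 5 genes most like Dusp1 over the 66 libraries, among 9583 with a mean of at least 5 FPKM, were Npas4 (Spearman's rho 0.765), Arc (0.721), Egr1 (0.688), Fos (0.679) and Rqcd1 (0.648). The first 4 are activity-regulated genes of neurons. After group means were removed the values were 0.602, 0.551, 0.560, 0.485 and 0.574. Dusp5 and Dusp6 followed each other at 0.760 and Nr4a1 at 0.787 and 0.770. Dusp2, also counted among the inducible nuclear DUSPs, had a rho of 0.059 with Fos, −0.001 with Arc, −0.123 with Nr4a1 and −0.417 with Egr1. The median over 1225 pairs of the 50 genes at or above 1 FPKM on average was 0.039, and the closest pairs were Map3k2 with Map3k7 (0.846), Map3k13 with Map3k2 (0.839) and Map2k4 with Mapk8 (0.831). These correlations share the depth, composition and set-apart status of the libraries and are given as a description.

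Around the cascade, 59 further genes of the pathway were listed, of which 56 were tested. They hold Ras proteins and their regulators, Raf kinases and scaffolds, MAP4Ks, Sprouty and Spred inhibitors, tyrosine phosphatases of MAP kinases, kinases downstream and transcription factor targets. None was called between cocaine and saline by limma. Between the genotypes over 11 groups Spred3, an inhibitor of Ras signalling, was called lower in iMSN-D2RKO (9.32 against 11.5 FPKM, −0.26 ± 0.049, adjusted p = 0.0018), and after saline Jun, the target that gives JNK its name, was called higher (20.8 against 15.8 FPKM, 0.38 ± 0.085, adjusted p = 0.026). Time of day was called for 32 of the 56, near the 51.6% of all genes. The calls covered 8 of 14 Ras proteins and regulators, 2 of 10 Raf kinases and scaffolds, 5 of 5 MAP4Ks, 7 of 10 downstream kinases, 6 of 8 transcription factors, 4 of 6 Sprouty and Spred genes and 0 of 3 tyrosine phosphatases, and differences between these groups were not tested. Between dark and light, 0 of 56 were called in WT saline, 6 in WT cocaine, 19 in iMSN-D2RKO saline and 2 in iMSN-D2RKO cocaine, against 2.75%, 13.7%, 27.3% and 0.942% of all genes.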

How the data were processed

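The authors sequenced stranded poly(A) libraries as single-end reads, called bases with CASAVA 1.8.2 by the submitters' processing notes, aligned reads to mm10 with TopHat and Bowtie2, and computed the deposited FPKM per gene with Cufflinks, Cuffmerge, Cuffquant and Cuffnorm. FPKM are scaled to transcript length and mapped fragments and are not counts, so depth is unknown. Of 72 columns, 6 list ZT3 libraries a second time with identical values and were dropped.

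Genes that reached 1 FPKM in any library were tested with limma 3.58.1 (R 4.3.3) on log2(FPKM + 1), with 22 group means over 66 libraries, trended empirical Bayes moderation, 44 residual degrees of freedom and Benjamini-Hochberg adjustment over 14643 genes. JTK_CYCLE was written in Python 3.11.15 with numpy 2.4.6 and pandas 2.3.3 and run on FPKM every 4 h with Dixon's outlier filter. Its order of ties was settled by comparison with a source table of the study. Both tests were tested on simulated data with 200 genes changed by 1 on the log2 scale. Of these, limma found 199 over 11 matched groups and 196 over 5 time points of cocaine against saline in WT. It found 182 for dark against light in WT saline and 119 for cocaine against saline in WT at ZT7. In the same order it called 12, 8, 7 and 4 other genes. JTK_CYCLE found 200 of 200 in WT saline, with an amplitude of 1 on the log2 scale, and called 94 others (0.684%). In both simulations the noise was drawn for each gene separately, without the variation that the set-apart libraries share. The changed genes were drawn from those at about 5 FPKM or more. The counts therefore do not cover shared variation, or weaker genes such as Dusp4 and Dusp5. Relative depth was estimated from 1439 genes above 0 in 3 to 15 libraries, as the inverse of the typical size of their values above 0 in a library, relative to the median library.

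Named genes were those called or rhythmic, the 3 with the smallest p per comparison among those with a mean of at least 5 FPKM, the most abundant of each role, and Mapk3, Map2k1, Map2k2, Dusp1 and Dusp6. An item withheld from the text is not reported here, though counts and medians over the tested genes include it. Genes at lower means that are named besides were chosen after their values were seen. Of the other lists, called genes, those with the smallest p and Drd2 were named. The genes studied and all lists were chosen with earlier results of these data known. Alternatives covered the pseudocount, the filter, centring, the trend, a replicate block, left-out replicates and libraries, the library score and, chosen after seeing the data, leaving out ZT3 or ZT19.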

Additional observations from a re-analysis of the deposited data

How the results depend on the processing

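Counts below are of cascade genes called. Without the set-apart libraries, cocaine at single time points went from 0 to 4 calls (3 of them at WT ZT19, where 1 library per arm is left), genotype over 11 groups from 1 to 2, genotype at ZT3 from 0 to 2, genotype after cocaine from 0 to 1, dark against light over the 4 series from 16 to 5, the F test of time from 31 to 14 and JTK_CYCLE from 13 to 8, of which 2 (Map3k13 and Dusp6) were among the 13. With the library score as a covariate, the single-time cocaine calls became 2, genotype over 11 groups 3, genotype after saline 3 (from 1) and dark against light 3, while the F test gave 29. The F test gave 17 without ZT19. JTK_CYCLE gave 35 at p under 0.05 and 8 without ZT3. The cause was not tested, beyond the smaller number of libraries in some settings. Leaving out single replicates or libraries gave 0 to 11 calls for cocaine at single time points, 0 to 0 for its averages over 5 time points, 0 to 2 for genotype over 11 groups, 0 to 3 at ZT3, 0 to 1 after saline and 0 to 1 after cocaine, 0 to 34 for dark against light, 0 to 0 for the differences between contrasts, 3 to 38 for the F test and 4 to 9 for JTK_CYCLE. No called difference changed sign under these settings or without any single library, while Dusp14 at ZT3, not called, went from 0.03 to −0.10 without WT ZT3 replicate 2. Replicate numbers do not pair the libraries, since same-numbered libraries correlated in their deviations between −0.771 and 0.608 (median −0.110, with 7 of 30 above 0.1). With the replicate number as a block the counts were 0 for cocaine, 1 for genotype, 17 for dark against light, 30 for the F test and 16 for JTK_CYCLE. Depth is unknown, which limits what can be said of the genes below 1 FPKM.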
